A study of Mus musculus with 30 samples.

Results

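The genes described here are those of MHC class I antigen presentation: the heavy chains H2-K1, H2-D1, H2-Q4 and H2-T23, their light chain B2m, the peptide transporter subunits Tap1 and Tap2, the loading factor Tapbp and the immunoproteasome subunits Psmb8 and Psmb9. They were chosen by name, and an array probe was taken as a member when the transcript it is annotated to maps to one of these symbols. All 10 genes were found among the 21368 gene symbols of the array, on 11 of its 55681 probes, since H2-K1 has 2 probes and each other gene 1. The numbers in the sample titles were read as 15 mice. From each the hippocampus and the remaining brain were taken, and their RNA was hybridised to 1-colour Agilent arrays. This gave 30 arrays in 12 groups of tissue, genotype and sex. The study compared a mouse model of Alzheimer disease with the same model lacking B cells. The 3xTgAD mice (2 females, 3 males) carry the transgenes APPSwe and tauP301L, and come from a line named as of mixed strain background, which the study calls congenic. The 3xTgAD-BKO mice (2 females, 3 males), called JHT_3xTgAD in the labels, carry in addition the JHT deletion of the J segments of the immunoglobulin heavy chain locus, without which B cells do not mature. The JHT mice (2 females) have that deletion without the transgenes, and the WT mice (3 females) are C57BL/6j. No male WT or JHT mice were measured. All were 15 to 20 months old and were perfused with PBS. Transgene expression in this model is driven by a Thy1 cassette, so it is largely neuronal.

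MHC class I molecules display peptides made inside a cell to CD8 T cells and natural killer cells. Proteasomes cut proteins into peptides, TAP1 and TAP2 carry the peptides into the endoplasmic reticulum, tapasin (Tapbp) holds the empty heavy chain and B2m next to the transporter until a peptide binds, and the loaded complex travels to the surface. Interferon gamma raises most genes of the pathway through factors that include Irf1 and Nlrc5, and exchanges catalytic subunits of the proteasome for the immunoproteasome subunits Psmb8 and Psmb9. In the brain, endothelial cells and microglia carry more class I than most neurons at rest. In whole tissue a change in the number of cells of a type and a change of RNA per cell cannot be told apart.

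All 10 genes were detected: 10 of the 11 probes were well above background on 30 of 30 arrays and Tap1 on 27, and none was saturated. Hippocampal arrays had a 75th percentile of signal intensity of 454 to 824, and brain arrays of 841 to 1636. As a check of the labels, the Thy1 probe rose in 3xTgAD over WT females by 0.96 on the log2 scale in the hippocampus (adjusted p = 0.00292, limma) and by 0.56 in the brain (adjusted p = 0.022). Its means in hippocampus and brain were 18.12 and 17.47 in 3xTgAD-BKO and 18.05 and 17.44 in 3xTgAD mice. Whether this probe binds RNA of the transgene cassette was not tested. The deleted segments themselves were not checked. Of the 5 listed B-cell markers, Cd79a, Ms4a1 and Pax5 were well above background on 0 to 2 of 15 arrays of either tissue, and Cd79b on 15 hippocampal and 14 brain arrays. A second Pax5 probe, well above background on 0 arrays, was called in brain females, lower in 3xTgAD-BKO than in 3xTgAD (adjusted p = 0.00965) and higher in 3xTgAD than in WT (adjusted p = 0.00537), and no fold is given for it. Drd2, a striatal marker used to check the dissection, fell by 1.21 in hippocampi of 3xTgAD-BKO against 3xTgAD males (adjusted p = 0.0125). Its probe was well above background on only 21 of 30 arrays, so the size of this fall is uncertain. A pair of mice stood apart in the genes described here. The 3xTgAD-BKO male number 0 was the highest of the 3 males of its group for 9 of 11 probes in the hippocampus and for 11 of 11 in the brain, where over all probes 39.6% and 31.8% were highest in that mouse. The WT female number 10 was the highest of 3 for 10 of 11 probes in the hippocampus and 11 of 11 in the brain, against 27.3% and 30.2% of all probes. The hippocampal array of male 0 also had 432 spots set aside as outliers, while the lowest number on any array was 102, and the 10 repeat spots of H2-K1 differed there with an SD of 0.42 on the log2 scale, against 0.034 to 0.079 on the other 29 arrays. Values without these mice are therefore given beside the results that they moved most.

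**Figure D1:**
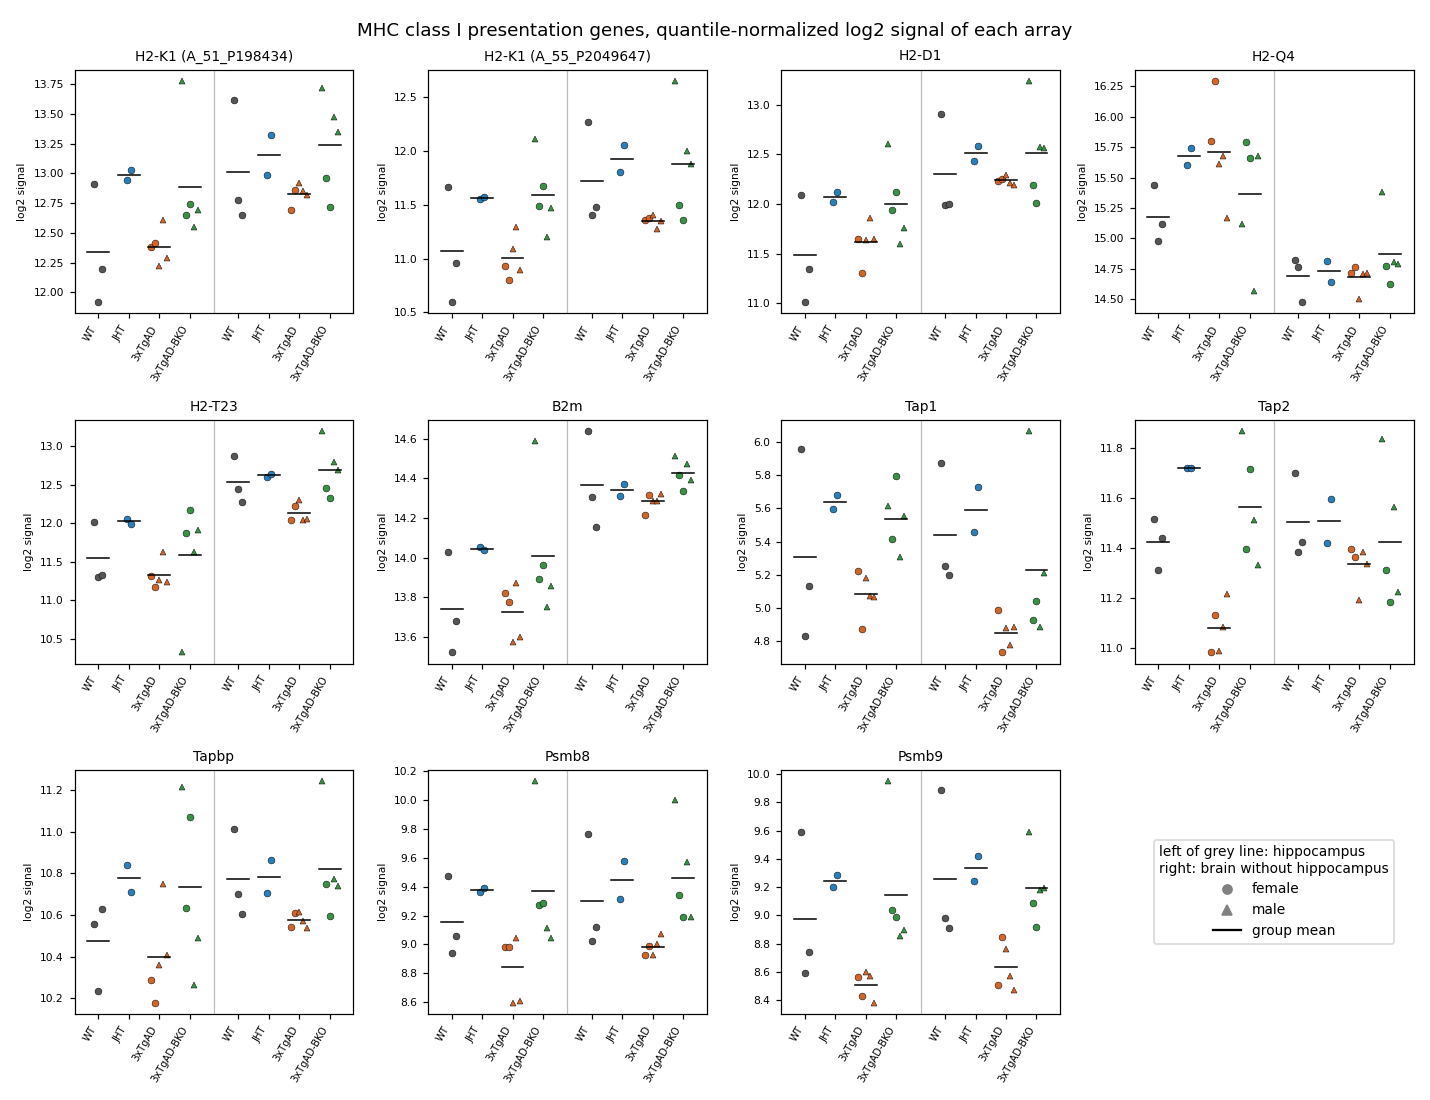
Quantile-normalized log2 signal of the 11 probes (y axis) in each array, by genotype (x axis) and tissue, with hippocampus left of the grey line and the rest of the brain right of it. Circles are females, triangles males and bars group means over 2 to 5 mice. In most panels the highest 3xTgAD-BKO point is male 0 and the highest WT point female 10.

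Between the tissues 5 of 11 probes were lower in the hippocampus and 1 was higher, where 22.2% of all probes were called lower and 23.7% higher, so calls between tissues were common throughout the array. The heavy chains H2-K1, H2-D1 and H2-T23 and the light chain B2m fell in the hippocampus relative to the rest of the brain, the heavy chain H2-Q4 rose there, and the transporters, tapasin and the immunoproteasome subunits did not pass the test. H2-T23 encodes Qa-1, a nonclassical heavy chain that presents leader peptides of other class I molecules to natural killer cells. Its log2 signal was 11.55 ± 0.49 (SD, n = 15) in the hippocampus, ranging from 10.32 to 12.17, and 12.46 ± 0.34 in the brain, ranging from 12.03 to 13.20. The difference averaged over the 6 groups of genotype and sex was -0.87 ± 0.13 (SE, adjusted p = 1.08e-05, limma). The tissues overlapped only between the highest hippocampal and the lowest brain arrays. H2-D1, a classical heavy chain, differed by -0.57 ± 0.13 (adjusted p = 0.000786), and H2-K1, the other classical heavy chain, by -0.39 ± 0.13 and -0.37 ± 0.12 on its 2 probes (adjusted p = 0.0156 and 0.0165). For B2m, which pairs with every class I heavy chain, the signal was 13.87 ± 0.26 in the hippocampus and 14.36 ± 0.12 in the brain, a difference of -0.48 ± 0.08 (adjusted p = 2.48e-05).

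H2-Q4, a heavy chain of the Qa region, went the other way. Its hippocampal values ran from 14.57 to 16.30 with a mean of 15.48 ± 0.42 (SD, n = 15), and its brain values from 14.48 to 15.38 with a mean of 14.75 ± 0.20. The fitted difference was 0.79 ± 0.10 (SE, adjusted p = 1.45e-06), so H2-Q4 was higher in the hippocampus. It was also more variable there, as were the other member probes except Tap1 and the second H2-K1 probe. Of the other members Tap1 differed by 0.18 ± 0.12, Tap2 by -0.01 ± 0.07, Tapbp by -0.13 ± 0.09, Psmb8 by -0.10 ± 0.11 and Psmb9 by -0.12 ± 0.13, with adjusted p from 0.25 to 0.918. Without 3xTgAD-BKO male 0 or without WT female 10 the number called was 6 in each case, as with all mice. Each tissue lies on its own slides apart from the brain array of male 0, so slide and tissue are largely confounded. With slide as a random block, chosen after seeing the data, 4 of 11 probes were called (H2-D1, H2-T23 and B2m lower, H2-Q4 higher), where 15507 of all 55681 probes were. The 2 H2-K1 probes no longer were called (adjusted p = 0.0881 and 0.0629). On the slide with both tissues, the mean of hippocampi of males 8 and 9 minus the brain of male 0 was below 0 for 11 of 11 probes, H2-Q4 included at -0.26, but this rests on the mouse that stands apart. Slides are known here only from the naming of the scanner files, and no label states them. Choroid plexus markers, whose 8 genes had a median difference of -1.59 between the tissues, and microglial markers, with a median of 0.31, moved between the tissues as well, and their part in the result was not tested.

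**Figure D2:**
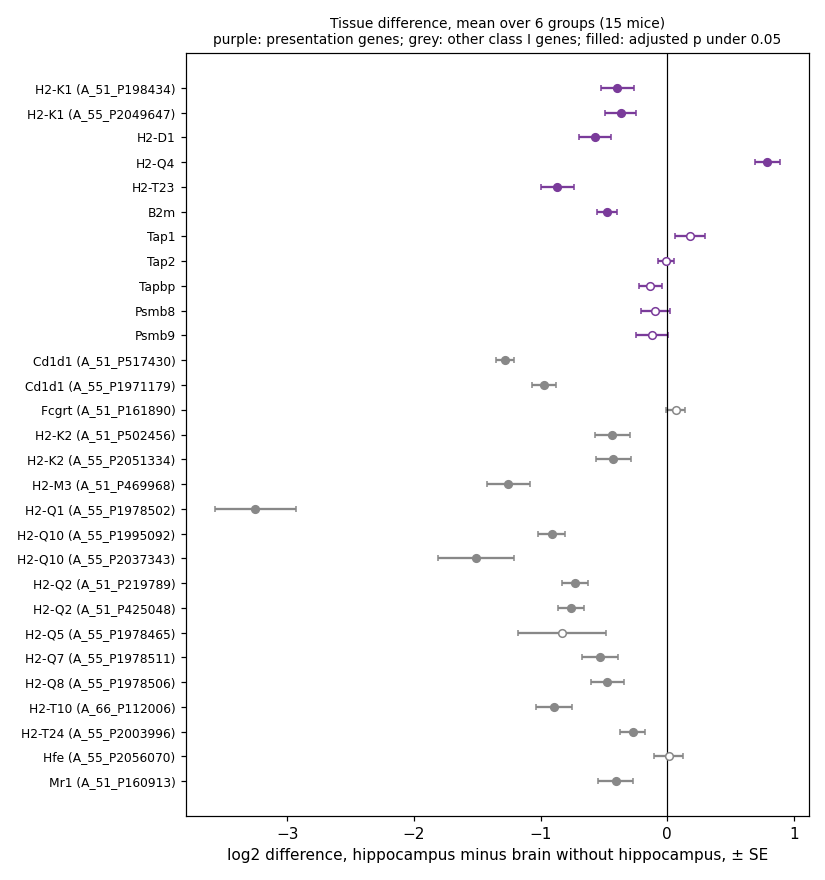
Difference in log2 signal between hippocampus and the rest of the brain (x axis, mean over 6 groups, bars are standard errors) for the 11 probes of the presentation genes in purple and for other class I probes well above background on at least 14 arrays in grey (y axis). Filled points passed the test, and H2-Q4 at 0.79 is the filled point to the right of 0.

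The other class I genes resembled H2-T23 rather than H2-Q4 in this respect. Of 24 listed genes 18 had probes, 24 in all, and 15 of these probes were lower in the hippocampus while 0 were higher, against 22.2% and 23.7% of all probes. H2-M3, which presents formylated peptides, differed by -1.26 ± 0.17 (adjusted p = 2.91e-06), and Cd1d1, which presents lipids, by -1.28 ± 0.07 (adjusted p = 7.71e-12) on the probe detected on all 30 arrays. H2-Q7 differed by -0.53 ± 0.14 (adjusted p = 0.00429), although it lies in the same Qa cluster as H2-Q4. Class I heavy chain genes are near-identical copies in parts of their sequence, so a probe named for one gene can bind the RNA of another, and values of single heavy chains are uncertain to that extent.

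The main comparison asked whether the absence of B cells goes with a different level of these genes in the Alzheimer model. No probe of the 11 passed the test in either tissue, but nearly all were higher on average in 3xTgAD-BKO than in 3xTgAD mice. With both sexes in the fit, 10 of 11 differences in the hippocampus were above 0, with a median of 0.45 on the log2 scale over the 11 probes against 0.005 over all probes, and 0 of 11 were called where 0.736% of all probes were. In the brain 11 of 11 were above 0, with a median of 0.38 against 0.0015, and 0 of 11 were called where 1.73% of all probes were. At an unadjusted p under 0.05 limma gave 5 of 11 probes in each tissue, where 8.33% of all probes in the hippocampus and 12.3% in the brain had one. In hippocampus and brain it gave 5 and 3 without male 0, and 6 and 7 without WT female 10. The share of all probes at that threshold was not counted without these mice. The unpaired t-test of the study's methods, after Benjamini-Hochberg adjustment, gave 0 of 11 in each tissue, where it called 0.302% and 1.03% of all probes. Without male 0 the medians were 0.31 and 0.17, with 10 of 11 differences above 0 in each tissue.

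Tap2, a subunit of the peptide transporter, came nearest to the threshold in the hippocampus. Its log2 signals in the 5 3xTgAD mice were 10.98, 11.13, 10.99, 11.08 and 11.22, and in the 5 3xTgAD-BKO mice 11.40, 11.72, 11.87, 11.51 and 11.33. The groups did not overlap, and the WT values, from 11.31 to 11.52, lay above every 3xTgAD value. The difference was 0.49 ± 0.11 (SE, adjusted p = 0.0815, limma). In the brain the same probe differed by 0.09 ± 0.12 with overlapping groups, and by -0.012 without male 0. The difference of the female contrast between the tissues was 0.63 ± 0.25 for Tap2 (adjusted p = 0.47). Over the 11 probes 0 were called for this interaction, where 0.174% of all probes were called, and 1 had an unadjusted p under 0.05 (2 without male 0), as 9.83% of all probes did.

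Psmb9, an interferon-induced catalytic subunit of the immunoproteasome, was higher in every 3xTgAD-BKO mouse than in any 3xTgAD mouse in both tissues. The hippocampal values ran from 8.38 to 8.60 in 3xTgAD and from 8.85 to 9.95 in 3xTgAD-BKO, and the brain values from 8.47 to 8.85 and from 8.91 to 9.59. The differences of 0.64 ± 0.23 and 0.56 ± 0.18 missed the threshold, with adjusted p of 0.399 and 0.213. Psmb8, the subunit that replaces Psmb5, had brain values from 8.92 to 9.07 in 3xTgAD and from 9.19 to 9.997 in 3xTgAD-BKO, a difference of 0.47 ± 0.17 (adjusted p = 0.255), and in the hippocampus, where the difference was 0.52 ± 0.20, the groups met at 9.05. Without male 0 the hippocampal difference of Psmb8 was 0.31.

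H2-T23 was the member nearest to the threshold in the brain. Its values were 12.04, 12.22, 12.30, 12.03 and 12.05 in 3xTgAD and 12.46, 12.33, 13.20, 12.80 and 12.69 in 3xTgAD-BKO mice. All 5 of the latter lay above the former, by 0.57 ± 0.14 on average (adjusted p = 0.0896). In the hippocampus 3 of 5 3xTgAD-BKO mice, from 11.88 to 12.17, passed the top of the 3xTgAD range of 11.17 to 11.63, male 8 lay just under it at 11.62, and male 0 had 10.32, the lowest value of all 15 mice, and the difference was 0.26 ± 0.29. Without male 0 it was 0.57. That array is the one with the most spots set aside.

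The classical heavy chains and B2m showed the same sign. The first H2-K1 probe had hippocampal values of 12.22 to 12.61 in 3xTgAD and 12.55 to 12.74 in the 3xTgAD-BKO mice other than male 0, which had 13.78. The differences for the 2 H2-K1 probes were 0.50 ± 0.24 and 0.59 ± 0.21 in the hippocampus and 0.42 ± 0.19 and 0.53 ± 0.21 in the brain, with adjusted p from 0.326 to 0.638. H2-D1 differed by 0.38 ± 0.22 and 0.28 ± 0.21. For B2m the brain values were 14.21 to 14.32 in 3xTgAD and 14.34 to 14.51 in 3xTgAD-BKO, which did not overlap although the difference was only 0.14 ± 0.08 (adjusted p = 0.514). Tap1 did not overlap in the hippocampus, with 4.87 to 5.22 against 5.31 to 5.80, and differed there by 0.45 ± 0.18 (adjusted p = 0.488). Its repeat spots on the hippocampal array of male 0 had an SD of 1.36 on the log2 scale. On the other arrays that SD was 0.068 to 0.79 with a median of 0.21, so the gap between the groups is small beside it. For Tapbp the difference was 0.34 ± 0.19 in hippocampi and 0.24 ± 0.11 in brains. Male 0 weighed on these values. Without it the hippocampal differences were 0.27 for the first H2-K1 probe, 0.23 for H2-D1, 0.12 for B2m, where it had been 0.28, and 0.21 for Tapbp. In the brain they were 0.12 for H2-D1, 0.14 for Tapbp and 0.17 for Tap1, where it had been 0.38.

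H2-Q4 again stood aside. Its hippocampal values were 15.80, 16.30, 15.61, 15.67 and 15.17 in 3xTgAD and 15.80, 15.66, 15.12, 14.57 and 15.68 in 3xTgAD-BKO mice, a difference of -0.34 ± 0.20 (adjusted p = 0.731), while in the brain the difference was 0.19 ± 0.13, and 0.07 without male 0. It was the only one of the 11 probes with a negative difference in the hippocampus.

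In the hippocampus 3 of 11 probes (Tap1, Tap2 and Psmb9) had all 3xTgAD-BKO mice above all 3xTgAD mice, against 1.28% of all probes, and in the brain 4 of 11 did (H2-T23, B2m, Psmb8 and Psmb9), against 2.24%. Without male 0 the counts were 3 and 4, and those of all probes 1.65% and 3.07%. For a single probe 5 against 5 mice without overlap give p = 0.00794 in a two-sided exact permutation test, the smallest this design allows, and it was not adjusted for the number of probes. The probes share their arrays and vary together, so these are not independent results.

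**Figure D3:**
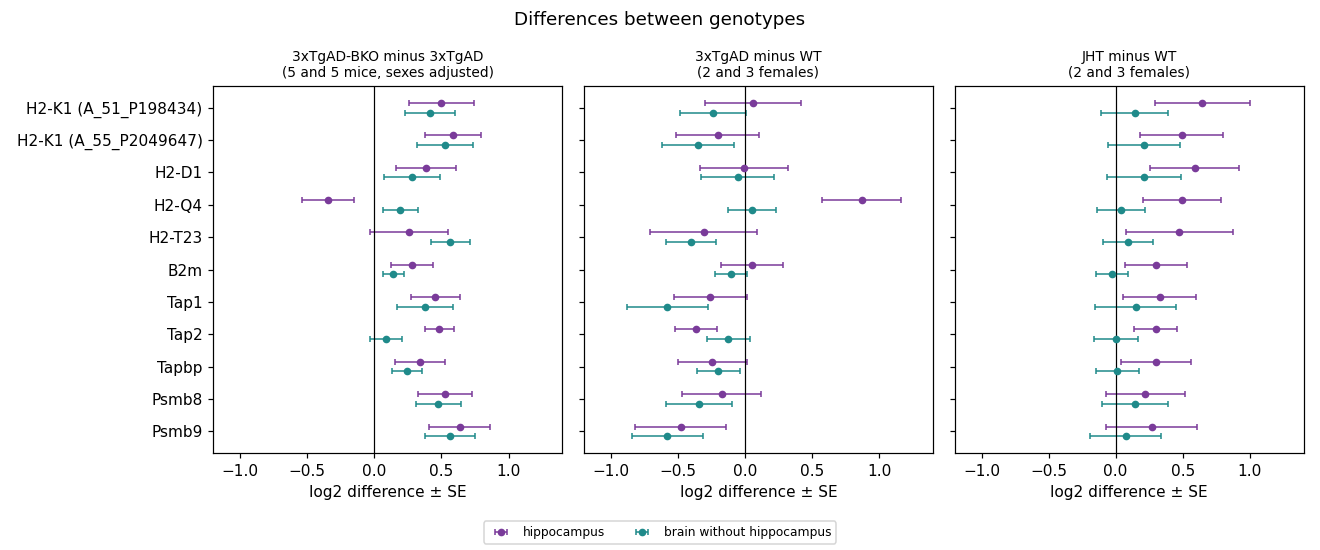
Log2 difference (x axis, bars are standard errors) of each probe (y axis) between 3xTgAD-BKO and 3xTgAD mice, between 3xTgAD and WT females, and between JHT and WT females, in hippocampus (purple) and the rest of the brain (teal). In the left panel all points except hippocampal H2-Q4 at -0.34 lie right of 0, and no point of any panel passed the test.

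The sexes were also fitted apart. In hippocampal females 10 of 11 differences were above 0 with a median of 0.52, and in males 9 of 11 with a median of 0.39, with 0 called in each where 0.37% and 0.63% of all probes were called. In brain females the median was 0.10, with 8 of 11 above 0, and in brain males 0.56, with 11 of 11 above 0, with 0 called where 1.12% and 0.783% of all probes were. In brain males 7 of 11 probes had an unadjusted p under 0.05, against 5618 of all 55681 probes, H2-T23 with a difference of 0.77 ± 0.17 (adjusted p = 0.0829) and the second H2-K1 probe with 0.83 ± 0.24 (adjusted p = 0.214). In brain females 0 of 11 had one, against 13.1% of all probes. In the hippocampus 1 of 11 in females and 3 of 11 in males had one, against 14.7% and 16% of all probes. Without male 0 the male medians were 0.25 in the hippocampus and 0.34 in the brain, with 1 and 3 of 11 probes at an unadjusted p under 0.05. Without WT female 10, which enters only through the shared spread, 6 and 8 of 11 probes in males had one. The difference between the sexes was tested directly and called for 0 probes in either tissue, where 0.0198% of all probes in the hippocampus and 0.145% in the brain were called. In the brain 11 of 11 differences, females minus males, were below 0 with a median of -0.40, and in the hippocampus 7 of 11 were above 0 with a median of 0.04. Without male 0 these medians were -0.22 and 0.17, with 10 of 11 above 0 in the hippocampus. At an unadjusted p under 0.05 there were 0 of 11 in each tissue, where 18.8% of all probes in the hippocampus and 8.94% in the brain had one, but without WT female 10, which enters only through the shared spread, 4 of 11 in the brain (H2-K1 on both probes, H2-D1 and H2-T23), and without male 0 1 of 11 in the hippocampus. In hippocampal females the count at that threshold was 4 of 11 without male 0 and 3 without WT female 10. For the fits of this paragraph that leave out a mouse, the share of all probes at that threshold was not counted. The 3xTgAD and 3xTgAD-BKO females of a tissue share 1 slide. Among the males of a shared slide, male 0 exceeded the mean of the 3 3xTgAD males for 9 of 11 hippocampal probes, and male 8 did so for 11 of 11 brain probes with a median of 0.34.

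Against WT, the presentation genes of 3xTgAD females lay mostly on the lower side. In the hippocampus 8 of 11 differences were below 0 with a median of -0.20, and in the brain 10 of 11 with a median of -0.24, while 0 of 11 were called in either, where 0.679% and 0.97% of all probes were. H2-Q4 had values of 15.80 and 16.30 in the 3xTgAD females and 14.98, 15.12 and 15.44 in the WT females, a difference of 0.87 ± 0.29 (adjusted p = 0.281) without overlap. Tap2 had 10.98 and 11.13 against 11.31 to 11.52, a difference of -0.37 ± 0.16 (adjusted p = 0.423). These 2 probes were those with an unadjusted p under 0.05 in the hippocampus, where 11.3% of all probes had one, and none of 11 had one in the brain, where 5625 of all 55681 probes had. Without 3xTgAD-BKO male 0, which enters only through the shared spread, 2 brain probes had one (Tap1 and H2-T23). The share of all probes at that threshold was not counted in that fit. WT female 10 weighed on this comparison: without it 5 of 11 hippocampal differences were below 0 with a median of 0.07, and 7 of 11 brain differences with a median of -0.08. The 3xTgAD and WT females share no slide in either tissue, and only 3xTgAD-BKO males link their slides. With slide as a random block 0 of 11 were called in either tissue, where 137 and 212 of all probes were, with medians of -0.31 and -0.28.

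The B-cell deletion without the transgenes gave differences above 0 for 11 of 11 probes in the hippocampus of JHT against WT females, from 0.22 to 0.65 with a median of 0.33, and for 10 of 11 in the brain with a median of 0.09. None of 11 was called in either tissue, where 0.122% and 0.223% of all probes were, and none had an unadjusted p under 0.05, where 7.6% and 6.64% of all probes had one. The hippocampal H2-K1 values were 12.95 and 13.03 in JHT and 11.92, 12.20 and 12.91 in WT, and the JHT pair lay between or above the WT values for every member. Without WT female 10 the medians were 0.63 and 0.36, with 4 and 3 of 11 probes at an unadjusted p under 0.05, and without male 0, which enters only through the shared spread, 2 hippocampal probes had one. The share of all probes at that threshold was not counted without these mice. Endothelial markers were above 0 for 9 of 10 in the hippocampus (median 0.28) and 8 of 10 in the brain (median 0.15). Choroid plexus markers were above 0 for 8 of 8 in the hippocampus (median 5.50) and 1 of 8 in the brain (median -0.23). None of either list was called, and the part of these markers was not tested. The JHT and WT arrays of a tissue share 1 slide. The comparisons of 3xTgAD and of JHT with WT share the 3 WT mice, and those of 3xTgAD-BKO and of WT with 3xTgAD share the 2 3xTgAD females.

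**Figure D4:**
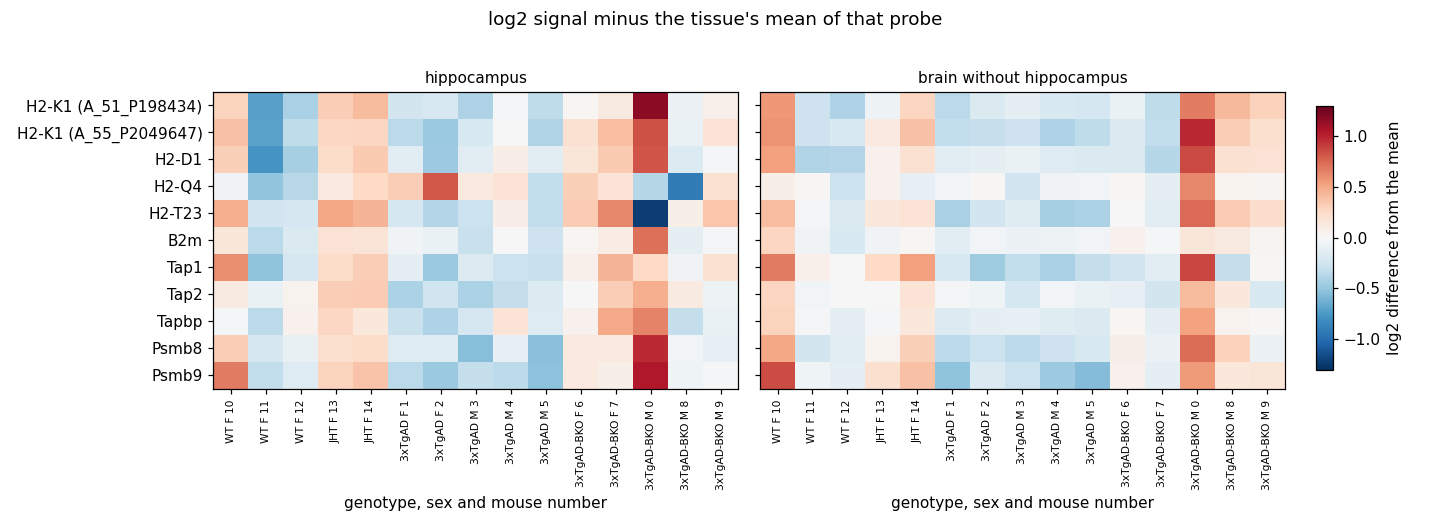
Log2 signal of the 11 probes (y axis) in each mouse (x axis, genotype, sex and number) minus the mean of that probe in the tissue, in colour. In the brain the reddest columns are 3xTgAD-BKO male 0 and WT female 10, and in the hippocampus both JHT females and 3xTgAD-BKO female 7 are about as high as WT female 10. The dark blue cell of male 0 in the hippocampus is H2-T23 at 10.32 on the log2 scale.

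Across mice most members moved together. After each tissue was centred on its mean, the Pearson correlation over the 30 arrays was 0.93 between H2-K1 and H2-D1, 0.92 between H2-K1 and B2m and 0.90 between Psmb8 and Psmb9, and the 2 probes of H2-K1 had 0.93. The median correlation of a member with the other 9 was 0.69 to 0.80 for H2-K1, H2-D1, B2m, Tap1, Tap2, Tapbp, Psmb8 and Psmb9, but 0.33 for H2-T23 and 0.18 for H2-Q4. Leaving out male 0 and female 10 raised that of H2-T23 to 0.78 over 26 arrays, left H2-Q4 at 0.17 and gave 0.59 to 0.74 for the others. The arrays come in pairs from 15 mice and share slides, so these values are descriptions. Among 13764 other genes, those most like the mean of the members were H2-Q8 with a correlation of 0.94, H2-K2 with 0.94, H2-Q7 with 0.93, H2-Q2 with 0.92 and Gm11127 with 0.86 over the 30 arrays. The first 4 are class I genes themselves and may share target sequence with the members' probes. Next in order, named after their values were seen, were Cd74, the invariant chain of class II, with 0.86, Vwf, an endothelial gene, with 0.85, and H2-Ab1, a class II chain, with 0.84. The mean Vwf signal in the hippocampus was 10.89 ± 0.48 (SD) in the 5 3xTgAD and 12.74 ± 0.71 in the 5 3xTgAD-BKO mice. In the brain the means were 11.03 ± 0.32 and 12.47 ± 0.98, and Vwf was called between these genotypes in neither tissue.

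Promoters of the heavy chains and B2m are shown because class I genes share a known control region just before their start. The stretches below are RefSeq sequence of the build GRCm38.p6, 5′ to 3′ on the gene's strand, and capitals mark matches on either strand to GGGGATTC (part of enhancer A, a site for NF-kB), TTTCNNTT (the core of the interferon-stimulated response element, a site for interferon regulatory factors) and TGACGCG (in site alpha, part of the module that Nlrc5 acts through).
H2-K1, chr17:34000379-34000468, minus strand: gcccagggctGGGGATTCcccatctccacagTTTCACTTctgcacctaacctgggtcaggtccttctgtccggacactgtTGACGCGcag
H2-D1, chr17:35262913-35263002, plus strand: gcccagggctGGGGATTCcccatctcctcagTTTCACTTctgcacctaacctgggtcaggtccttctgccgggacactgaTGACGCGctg
H2-Q4, chr17:35379433-35379522, plus strand: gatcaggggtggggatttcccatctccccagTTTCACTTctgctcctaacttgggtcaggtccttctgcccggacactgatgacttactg
H2-T23, chr17:36032767-36032856, minus strand: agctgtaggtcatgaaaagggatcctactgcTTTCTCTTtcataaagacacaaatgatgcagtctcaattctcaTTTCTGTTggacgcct
B2m, chr2:122147519-122147608, plus strand: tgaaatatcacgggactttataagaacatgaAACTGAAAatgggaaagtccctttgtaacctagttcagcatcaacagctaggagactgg

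The H2-K1 and H2-D1 stretches hold all 3 motifs in the same order, and they are the only 2 genes among the 32851 promoter windows of the table with all 3 (0.00913% of windows, as H2-K1 has a pair of windows). The H2-Q4 stretch is closely alike but holds only TTTCNNTT. A window here is 250 bases before to 50 after the gene's start. GGGGATTC occurs in 0.712% of all windows, TGACGCG in 1.91% and TTTCNNTT in 23.9%, so the last is common. Windows were found for 9 of the 10 members, and those of Tap1, Tapbp, Psmb8 and Psmb9 held none of the 3 motifs. Tap1 and Psmb9 start 226 bases apart and are read in opposite directions, so their windows overlap. H2-K1 and H2-D1, which hold all 3, had a correlation of 0.93. B2m and H2-Q4 hold the same 1 motif, and their correlations with H2-K1 were 0.92 and 0.22. Psmb8, with 0.89, holds none. Whether the motifs relate to how the members varied was not tested. A match is a run of letters and not a measured site.

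Of 13 listed regulators of the pathway, Irf1 and Nlrc5 were called in the brain between 3xTgAD-BKO and 3xTgAD mice of both sexes, where 1.73% of all probes were called. Irf1, a transcription factor induced by interferon, had brain values of 9.82 to 10.07 in 3xTgAD and 10.35 to 10.54 in 3xTgAD-BKO, with WT at 10.47 to 10.77. It rose in 3xTgAD-BKO by 0.47 ± 0.08 (adjusted p = 0.0146, both sexes) and fell in 3xTgAD against WT females by 0.64 ± 0.13 (adjusted p = 0.0476). In the hippocampus it rose in males by 0.75 ± 0.13 (adjusted p = 0.0351). Nlrc5, the transactivator of class I genes, had brain values of 5.87 to 6.05 in 3xTgAD and 6.39 to 7.10 in 3xTgAD-BKO, with WT at 6.63 to 7.37, and rose by 0.87 ± 0.16 (adjusted p = 0.0177). None of the 13 passed the test with both sexes in the hippocampus or in JHT against WT females. The hippocampal differences with both sexes were nevertheless 0.57 ± 0.12 for Irf1 (adjusted p = 0.0545) and 0.89 ± 0.33 for Nlrc5 (adjusted p = 0.436). Over the 13 genes 10 differences were above 0 in the hippocampus with a median of 0.05, and 7 in the brain with a median of 0.002. In hippocampal males 12 of 13 were above 0 with a median of 0.27. Interferon gamma itself (Ifng) was well above background on 0 arrays.

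**Figure D5:**
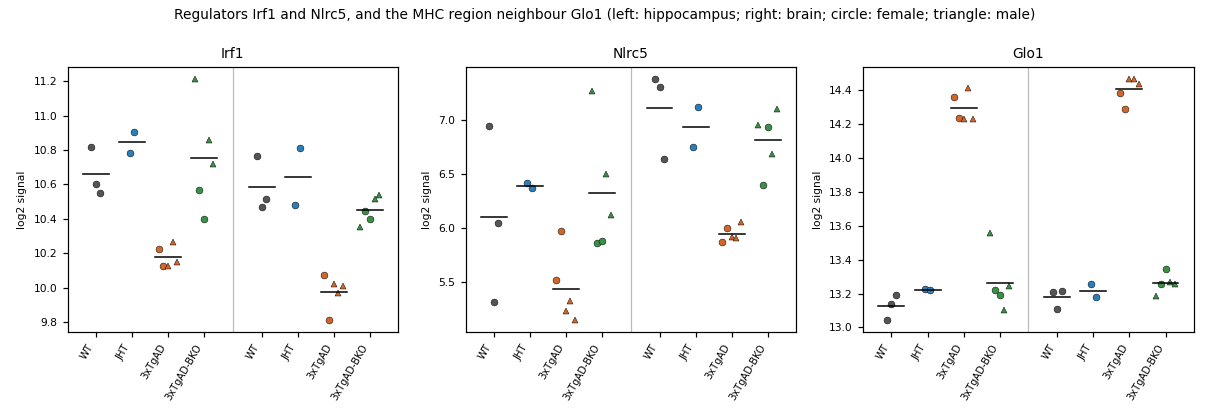
Quantile-normalized log2 signal (y axis) of Irf1, Nlrc5 and Glo1 in each array by genotype (x axis), with hippocampus left of the grey line and brain right of it, circles for females, triangles for males and bars for group means. All 3xTgAD brain points of Irf1 and Nlrc5 lie below every other brain point, and all Glo1 points of 3xTgAD lie above 14.2 in both tissues.

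Few other genes of the pathway were called between genotypes. Of 9 listed genes of peptide supply and loading (Psmb10, Psme1, Calr, Canx, Pdia3, Erap1, Tapbpl and Sec61a1 had probes), 0 of 8 were called in 3xTgAD-BKO against 3xTgAD in either tissue, with medians of 0.11 and 0.08. The constitutive catalytic subunits Psmb5, Psmb6 and Psmb7, which Psmb8, Psmb9 and Psmb10 replace, had medians of -0.06 and -0.04 and 0 calls. The 18 other class I genes had 12 differences above 0 in the hippocampus with a median of 0.24, and 14 in the brain with a median of 0.13, and in hippocampal females the median was 0.56. Of their 24 probes 1 was called in the brain, where 1.73% of all probes were. This was H2-M3 with 8.38 to 8.62 in 3xTgAD and 8.70 to 8.91 in 3xTgAD-BKO, a rise of 0.34 ± 0.06 (adjusted p = 0.0165). In the hippocampus none was called, and H2-M3 differed by -0.13 ± 0.37 (adjusted p = 0.97).

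Of 18 other genes listed from the MHC region of chromosome 17 and its surroundings, which do not present antigen, 17 were called in no comparison of genotypes, and Glo1, which lies outside the MHC region before Tapbp and encodes the detoxifying enzyme glyoxalase, was called in 8. Its hippocampal values were 14.23 to 14.41 in 3xTgAD, 13.11 to 13.56 in 3xTgAD-BKO, 13.05 to 13.19 in WT and 13.22 and 13.23 in JHT. It fell by 1.03 ± 0.09 in hippocampi of 3xTgAD-BKO against 3xTgAD mice (adjusted p = 0.000116) and by 1.14 ± 0.05 in the brain (adjusted p = 4.14e-07), and rose in 3xTgAD over WT females by 1.17 and 1.16. Glo1 and 9 of the 10 members, all but B2m, lie on chromosome 17. Whether a strain segment there differs between the groups, and whether the heavy chain probes bind the sequence of each strain alike, was not tested.

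Cell type markers were read beside these results. Of the 10 endothelial markers 1 was called in each tissue, where 0.736% and 1.73% of all probes were. Their median difference between 3xTgAD-BKO and 3xTgAD was 0.40 in the hippocampus and 0.42 in the brain, with 9 of 10 above 0 in each, and -0.40 and -0.51 in 3xTgAD against WT females. In brain females it was 0.36, where that of the members was 0.10. The marker called was Cldn5, a tight junction protein of brain endothelium, which rose in 3xTgAD-BKO by 1.14 (adjusted p = 0.00498) and 1.05 (adjusted p = 0.00836) and fell by 1.22 in hippocampi of 3xTgAD against WT females (adjusted p = 0.0491). The mean endothelial level ranged from 10.20 to 10.59 in 3xTgAD and from 10.89 to 11.42 in 3xTgAD-BKO hippocampi, and from 10.45 to 10.76 and 10.74 to 11.29 in the brain. In WT female 10 the median excess over the other 2 WT mice, in hippocampus and brain, was 0.32 and 0.39 for endothelial markers, 1.45 and 1.71 for the 5 B-cell markers and 0.47 and 0.49 for T and NK cell markers. Of the 8 microglial markers 8 of 8 in the hippocampus and 7 of 8 in the brain were above 0 between 3xTgAD-BKO and 3xTgAD, with medians of 0.27 and 0.23, but in hippocampal females 3 of 8 were, with a median of -0.11, against 0.50 in males. Cx3cr1, a chemokine receptor of microglia, rose in the brain by 0.56 ± 0.12 (adjusted p = 0.0402) on 1 of its probes, while the brighter probe, which stands for it in the list, was not called. In male 0 the median excess over the other 2 males was 0.55 and 0.36. The same mouse had an excess of 1.60 and 0.67 in blood markers, 0.46 and 0.74 in T and NK cell markers and 0.78 and 0.33 in choroid plexus markers. The 8 T and NK cell markers had medians of 0.18 and 0.37, with Gzma called in the brain at 1.63 (adjusted p = 0.0351) and Cd8a and Gzmb well above background on 0 arrays. Choroid plexus markers varied widely within 2 hippocampal groups, with mean levels of 6.93 to 13.29 in 3xTgAD-BKO and 8.36 to 13.37 in 3xTgAD. They also lay apart between WT, at 6.66 to 7.94, and JHT, at 12.44 to 13.39. Blood markers had medians of -0.01 and -0.11, neuronal markers of -0.17 and -0.04 and astrocytic markers of 0.09 and -0.06. The part of any of these cell types in the members' values was not tested.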

How the data were processed

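The 10 genes and all gene lists were chosen with earlier results of these data known. The deposited scanner files hold intensity values, background-corrected by the authors' Feature Extraction 12.0.3.1 (per the file headers). The deposited value table holds scores that equal the Z of the log10 signal of each array (largest difference 0.00502) and was used as an alternative. Control spots and outlier spots were left out, spots of a probe averaged, and log2 signals quantile-normalized over 30 arrays. Probes were named by RefSeq accession (28331 of 55681 had a symbol). limma 3.58.1 (R 4.3.3) fitted 6 groups of genotype and sex per tissue, or genotype and sex as additive terms, two-sided, with Benjamini-Hochberg adjustment over all 55681 probes at 0.05. The fits were tested on simulated data. Replicates are separate mice, 2 to 5 per group, which limits the precision. Named genes are all members, listed genes that passed a test between genotypes, the 5 genes most like the members, and a few markers that bear on a result. Samples with the same number in their titles were taken to be from the same mouse. Deviations from group means correlated between the tissues with a median r of 0.0919 over 15 pairs (-0.176 to 0.235). Of these pairs 7 were above 0.1, so the values do not establish the pairing. Alternatives were other scalings, background correction, a filter on dim probes, 1 value a gene, slide and mouse blocks, the t-test of the methods and leaving out each mouse. Gene coordinates are those of GRCm38.p6, while the array's headers name mm9, so only promoter positions are printed. Probe sequences were not used here. Some items of the labels and lists are not reported here.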

Additional observations from a re-analysis of the deposited data

Results flagged for a closer look

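In groups of 5 mice, 9 of 44 probe and group combinations had 1 mouse far from the other 4 by Dixon's criterion (gap over range above 0.71), where chance flags about 1 in 20. Of these, 7 were 3xTgAD-BKO male 0. In the hippocampus its log2 signals were 13.78 for the first H2-K1 probe (next 12.74), 14.59 for B2m (next 13.96), 10.13 for Psmb8 (next 9.28) and 9.95 for Psmb9 (next 9.04). In the brain they were 15.38 for H2-Q4 (next 14.81), 6.07 for Tap1 (next 5.21) and 11.24 for Tapbp (next 10.77). The other 2 were low values of 3xTgAD male 3 in the brain, 14.50 for H2-Q4 (next 14.71) and 11.19 for Tap2 (next 11.34). WT female 10 belongs to a group of 3, which is too small for the criterion.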

How the results depend on the processing

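With 2 to 5 mice a group, no member passed the test between genotypes, so absence of a difference is not shown. In the hippocampus against brain comparison 6 of 11 probes were called, and 6 with the replicate block of the mouse, which changed no call (0 member probes in each comparison of genotypes). Against 0 member probes called in the main setting, 1 was called in brain males and 1 (H2-T23) in the brain with both sexes under normexp, under the filter on dim probes and at a threshold of 0.1, and 1 (Tap2) in the hippocampus with both sexes at 0.1. Leaving WT mouse 10 out of the shared spread, chosen after seeing the data, gave 1 in brain males (H2-T23, adjusted p = 0.0434) and 1 in the brain with both sexes (Psmb9, adjusted p = 0.0493). Of all probes these fits called 417 and 908. The unadjusted t-test of the methods counted 5 in hippocampal females, 1 in hippocampal males, 5 in the hippocampus with both sexes, 2 for 3xTgAD against WT and 1 for JHT against WT in the hippocampus, 5 in brain males and 5 in the brain with both sexes, where it counted 13%, 9.47%, 6.19%, 12.7%, 8.58%, 7.47% and 11.8% of all probes. Leaving out each mouse gave 0 to 1 in the hippocampus with both sexes (1 without 3xTgAD-BKO male 9, Tap2, adjusted p = 0.0487). With slide as a random block, chosen after seeing the data, 4 probes were called between tissues, H2-K1 lost its call and Tap1 turned to -0.012. Of the 33 member changes followed, the other that turned sign was Tap2: between genotypes in the brain to -0.012 without male 0 (-0.012 to 0.16 over the mice left out), and between tissues to 0.0048, 0.027 and 0.0041 (-0.047 to 0.027 over the mice left out) without 3xTgAD female 1, 3xTgAD-BKO female 6 and JHT female 14. The tissue count was 4 to 6 over the mice left out, since the H2-K1 probes lost their call without female 6 (adjusted p = 0.0523 and 0.0549), and the second also without JHT female 14 (0.0515). Scaling to the 75th percentile moved the median tissue difference of all probes to 0.35 and called Tap1 higher in the hippocampus (0.50), and the other signs held. All-probe counts over the settings ran from 168 to 600 (main 410) with both sexes in the hippocampus, 574 to 1456 (main 966) in the brain, and 15507 to 37315 (main 25566) between tissues. For the smaller comparisons they reached 0 to 1034 (main 206) in hippocampal females, 5 to 1972 (main 351) in hippocampal males, 0 to 1278 (main 626) in brain females and 14 to 710 (main 436) in brain males. The causes were not tested.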
